A study of Homo sapiens with 5 samples.

Results

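The 2 control libraries of a breast cancer experiment were compared with each other: MDA-MB-231 cells that had received a control siRNA for 48 h (siNT) and MDA-MB-231 cells that had received PBS for 12 h (PBS). They are 2 of 5 libraries, with 1 library in each group. The other 3 libraries were cells given an siRNA against SET for 48 h (siSET), an siRNA against CIP2A (siCIP2A, whose own label gives no time, while the treatment protocol gives 48 h for both knockdowns), and 1 µM OP449 for 12 h. MDA-MB-231 is an established line of triple-negative breast cancer, and the growth protocol names IMDM with 5% FBS for all 5 libraries. RNA was reverse transcribed from oligo-dT primers and sequenced. Transfection, the nature of the control agent, time and handling all differ between siNT and PBS, and their parts cannot be told apart. Of 10595 genes in the table, 6075 had a mean of at least 50 scaled counts over the 2 control libraries, and these are the genes described. Scaled counts are read counts that the authors had put on a common scale.

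Some background helps in reading the gene groups. Genes of mitosis and chromosome segregation are transcribed in waves late in the cell cycle, under repressor and activator complexes that bind CHR and CCAAT elements in their promoters. Cytokine genes such as IL1A, IL1B and CSF3 are controlled by NF-kB and AP-1 and by RNA decay, and MDA-MB-231 cells are known to make many of them. Genes of cholesterol and fatty acid synthesis are driven together by the SREBP factors, which sense sterols in the endoplasmic reticulum and respond to serum and lipid supply. In bulk RNA, fewer cells of a kind and less RNA per cell cannot be told apart.

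The libraries held 3641203 to 5601991 reads over the 10595 genes, with siSET the shallowest. 1 read corresponded to 1.19 scaled counts in siNT and to 1.13 in PBS, so a count of 0, which allows up to 3 reads, corresponds to at most 3.56 and 3.40 scaled counts. The 9 mesenchymal markers of the line, among them VIM, CD44 and AXL, were all past the floor, and their summed level lay between 108586 and 113115 scaled counts in the 5 libraries. Of 11 luminal markers 8 passed the floor, with sums of 6194 to 8122. PGR was at 0 in all 5 libraries, and FOXA1 had reads only in OP449, at 1.29 scaled counts. Among 10 immune markers the defining genes CD3D, CD2, CD48, CD79B and MS4A1 were at 0 in all 5 libraries and PTPRC reached at most 2.37 scaled counts. LAPTM5 was the 1 immune marker past the floor, at 616 in siNT and 597 in PBS, with 226 in siSET, 214 in siCIP2A and 322 in OP449. In the endothelial and fibroblast lists TIE1 and THY1 were at 0 in all libraries, while ICAM2, FBN1 and COL1A1 were expressed. The table used here covers chromosomes 1 and 10 to 19 and chromosome 2 up to 166.5 Mb on hg19. SET, CIP2A and MYC lie elsewhere and were not analysed here.

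The 2 controls were alike for most genes. The log2 difference, siNT minus PBS on log2(value + 1), had a median of 0.00, with the 5th percentile at -0.40 and the 95th at 0.41, and 97.0% of the genes lay within 1.5-fold. At least 2-fold higher in siNT were 15 genes (0.247% of 6075) and at least 2-fold lower 9 (0.148%). The higher genes were led by the serine protease gene PRSS22 and by secreted signalling genes (CSF3, IL1A, EDN2, IL1B). The lower genes were led by the transcription factor gene ATOH8, and ID3 was among them. With 1 library a group there is no test between conditions and no replicate check. The intervals in brackets are 95% exact Clopper-Pearson intervals of the log2 ratio from the recovered reads, which cover counting error only. That interval was above 0 for 17.7% of the genes and below 0 for 17.6%, so an interval that excludes 0 was common and does not show an effect of the siRNA.

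**Figure D1:**
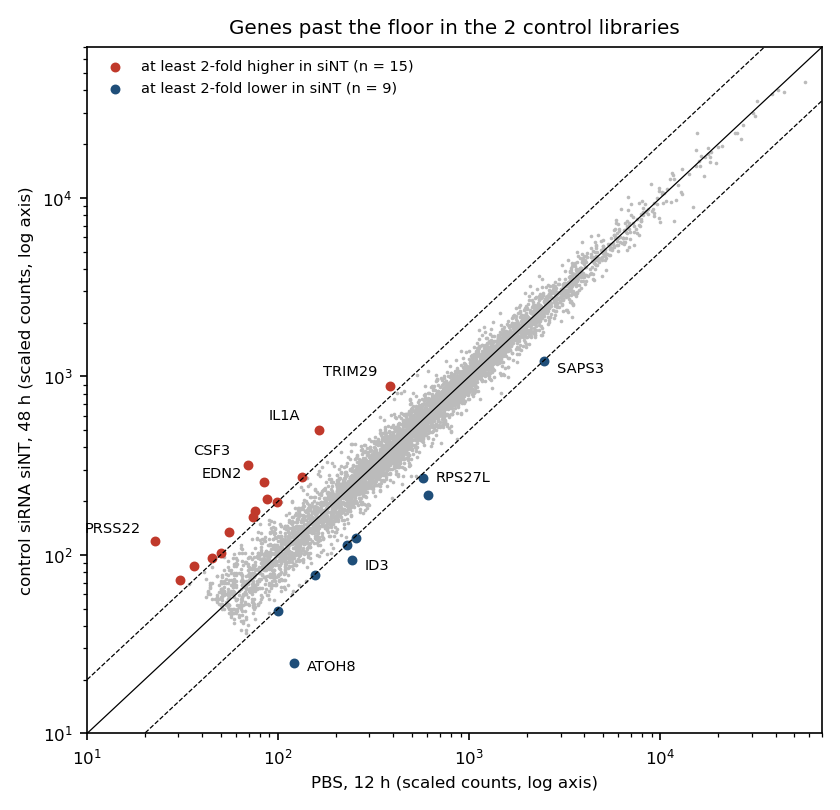
Scaled counts of the 6075 genes past the floor in the PBS library (x, log axis) and the control siRNA library siNT (y, log axis); the solid line marks equality and the dashed lines 2-fold. The 15 genes at least 2-fold higher in siNT (red) and the 9 lower (blue) include PRSS22, CSF3 and IL1A above the band and ATOH8 and ID3 below it.

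Genes of mitosis stood lower in siNT almost throughout, each by a small amount. The list, drawn up from mitotic regulators and kinases, from kinesins, spindle and cytokinesis genes and from kinetochore and condensin genes, had 73 members in the table, and all 73 passed the floor. Of these, 71 stood lower in siNT than in PBS, against 51.0% of all genes, and 59 had an interval below 0, against 17.6%. None was 2-fold lower: the median was -0.30 and the range ran from -0.72 for WEE1 to 0.08 for NCAPD3. The summed level of the list was 128766 scaled counts in PBS, 130367 in OP449, 103537 in siNT, 105229 in siSET and 97723 in siCIP2A. The 3 siRNA libraries thus lay below both 12 h libraries in the sum. The same order held gene by gene for 66 of the 73, against 13.8% of all genes, and no member had the opposite order, which 12.1% of all genes had. The siNT library was itself the lowest of the 5 for 21 members, against 19.7% of all genes, and PBS the highest for 30, against 14.2%.

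Promoters of this list often hold the CHR and CCAAT motifs, which are known for mitosis genes as a class. These shares therefore describe the kind of gene listed and do not bear on the difference between siNT and PBS. Lower members were not compared with the others. The motif CHR (letters TTTGAA, searched on both strands from 250 bases before to 50 after the start) was in 43 of the 63 promoters found in the RefSeq table (68.3%), against 13.1% of the 5187 promoters of genes past the floor and 18.2% of all promoters in that table. The CCAAT box (letters CCAAT, both strands) was in 51 of 63 (81.0%), against 44.9% and 39.7%. For the DNA replication list the CHR letters were in 3 of 43 promoters (6.98%) and CCAAT in 65.1%. These are matches of letters, not measured binding sites. The promoters of the 4 mitosis genes with the largest differences among those that hold the CHR letters are printed here because they show how close to the start the letters lie. They are RefSeq sequences of build GRCh38.p14, a later build than the table's, 300 bases each, 5′ to 3′ on the gene's strand. Capitals mark TTTGAA or its complement TTCAAA, and CCAAT or its complement ATTGG. CKS1B lies at chr1:154974431-154974730 on the plus strand, NDC80 at chr18:2571307-2571606 on the plus strand, CDCA3 at chr12:6851237-6851536 on the minus strand and CENPA at chr2:26785806-26786105 on the plus strand. The CHR letters begin 30 bases before the start in CKS1B, 18 before it in CENPA and 3 before it in NDC80 and CDCA3, while CCAAT letters occur 5 times in CKS1B, 2 times in CENPA, 1 time in CDCA3 and 0 times in NDC80.
CKS1B: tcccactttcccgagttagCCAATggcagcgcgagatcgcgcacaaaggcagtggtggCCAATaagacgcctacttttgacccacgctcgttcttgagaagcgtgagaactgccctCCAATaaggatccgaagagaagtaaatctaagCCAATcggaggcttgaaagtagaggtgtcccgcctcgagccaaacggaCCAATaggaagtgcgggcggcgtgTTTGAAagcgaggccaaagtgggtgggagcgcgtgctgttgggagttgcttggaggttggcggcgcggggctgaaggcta
NDC80: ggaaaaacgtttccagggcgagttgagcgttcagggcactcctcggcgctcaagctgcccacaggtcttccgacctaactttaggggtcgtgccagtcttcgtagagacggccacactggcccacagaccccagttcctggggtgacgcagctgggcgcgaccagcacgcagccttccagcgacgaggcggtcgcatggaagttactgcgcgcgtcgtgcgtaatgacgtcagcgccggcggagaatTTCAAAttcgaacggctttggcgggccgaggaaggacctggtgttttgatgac
CDCA3: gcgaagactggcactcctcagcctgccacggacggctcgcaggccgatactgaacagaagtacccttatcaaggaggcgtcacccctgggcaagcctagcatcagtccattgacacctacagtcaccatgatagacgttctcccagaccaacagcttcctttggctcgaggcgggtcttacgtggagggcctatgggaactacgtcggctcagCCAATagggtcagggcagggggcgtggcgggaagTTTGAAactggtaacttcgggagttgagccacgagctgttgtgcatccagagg
CENPA: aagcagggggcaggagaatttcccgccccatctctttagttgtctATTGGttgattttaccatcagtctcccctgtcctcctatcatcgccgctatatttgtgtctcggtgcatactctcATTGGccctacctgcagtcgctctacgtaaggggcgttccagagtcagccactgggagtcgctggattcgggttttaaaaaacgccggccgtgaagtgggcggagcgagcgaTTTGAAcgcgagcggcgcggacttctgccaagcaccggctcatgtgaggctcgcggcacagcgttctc

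Among the mitotic regulators, all 29 stood lower in siNT, with a median of -0.28. PLK1, the kinase that drives centrosome maturation and mitotic entry, stood at 1199 scaled counts in siNT and 1765 in PBS, with 1230.0 in siSET, 1112 in siCIP2A and 1643 in OP449. The siRNA libraries did not overlap the 12 h libraries, and siNT minus PBS was -0.56 [-0.67 to -0.44]. FOXM1, the transcription factor of the late cell cycle programme, read 1697, 1899 and 1569 in siNT, siSET and siCIP2A and 2384 and 2238 in PBS and OP449, a difference of -0.49. CDCA3, a trigger of mitotic entry, stood at 798 in PBS, 680.2 in OP449, 529.7 in siNT, 525 in siSET and 424 in siCIP2A. CKS1B, a small partner of the cyclin-dependent kinases, stood at 183 in siNT and 292 in PBS, with 243 in siSET, 234 in siCIP2A and 262 in OP449, so siNT was the lowest of the 5. The largest difference, that of WEE1 at -0.72, lay outside that order, as MASTL and PKMYT1 did: the level of this inhibitor of mitotic entry was 799 in PBS, 691 in OP449, 486 in siNT, 813 in siSET and 542 in siCIP2A.

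Among the motors and spindle proteins all 23 stood lower in siNT, with a median of -0.33, and for all 23 the 3 siRNA libraries were below both 12 h libraries. CEP55, which marks the bridge between dividing daughter cells, read 1765, 1531 and 1591 in siNT, siSET and siCIP2A and 2428 and 2739 in PBS and OP449. The mitotic kinesin gene KIF18B stood at 542 in siNT and 764 in PBS, with 496 in siSET, 520.1 in siCIP2A and 823 in OP449. In both genes siNT was the highest of the 3 siRNA libraries and still below PBS and OP449. NUSAP1, a spindle-associated protein gene, differed by -0.50 and the kinesin genes KIF18A and KIF2C by -0.45 and -0.41.

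Of the 21 kinetochore and condensin genes 19 stood lower in siNT, with a median of -0.35. NDC80, which ties the kinetochore to microtubules, stood at 1137 in PBS, 1071 in OP449, 748 in siNT, 773 in siSET and 777 in siCIP2A. The 3 siRNA libraries lay close together and under both 12 h libraries, and the NDC80 difference between the controls was -0.60 [-0.75 to -0.46]. NUF2, its partner in the same complex, read 616, 563 and 572 in siNT, siSET and siCIP2A and 899 and 828 in PBS and OP449. The centromeric histone gene CENPA stood at 308, 241 and 261 in the same siRNA libraries and at 456 and 403 in the 12 h libraries. TOP2A, the topoisomerase that untangles chromosomes, differed by -0.44 [-0.49 to -0.39], from 7312 in siNT and 9923 in PBS. The exceptions were NCAPD3 at 0.08 and CASC5 at 0.04, where the groups overlapped.

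DNA replication and E2F target genes stood lower as well, by a smaller median. Of 48 past the floor, 40 stood lower in siNT, against 51.0% of all genes, and 25 had an interval below 0, against 17.6%, with a median of -0.21. The siRNA libraries were all below the 12 h libraries for 27 of the 48, against 13.8% of all genes. E2F2, an S phase transcription factor, read 127, 161 and 134 in siNT, siSET and siCIP2A and 187 and 174 in PBS and OP449, a difference of -0.56 [-0.93 to -0.20]. Lower by 0.39 to 0.45 on the log2 scale were GINS2 of the replicative helicase (-0.45), the histone chaperone gene ASF1B (-0.44), and MCM10 and FANCA (both -0.39). CCNE1, the cyclin of S phase entry, was the 1 gene of this list with the opposite order: it stood at 303 in siNT and 273 in PBS, with 411 in siSET, 322 in siCIP2A and 300.2 in OP449. Genes of nucleotide synthesis lay in the same direction, with 14 of 17 lower (82.4%, against 51.0% of all genes) and a median of -0.14. Among them were TK1 and SHMT2 (both -0.38), SHMT1 (-0.35) and MTHFD1 (-0.33).

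Inhibitors of the cell cycle stood lower in siNT more often than higher. Of 18 CDK inhibitor and growth arrest genes past the floor, of 20 in the table, 13 stood lower in siNT and 5 higher. Of all genes 51.0% stood lower. The list median against PBS was -0.12 in siNT, -0.05 in siSET and 0.16 in siCIP2A. The 25th percentile of all genes in siNT was -0.14. For 4 of the 18 (22.2%, against 13.8% of all genes) the siRNA libraries were all below the 12 h libraries. BTG2, an antiproliferative gene, differed by -0.76 [-1.43 to -0.15] at low levels, from 40.3 scaled counts in siNT and 69.1 in PBS. CDKN2C, an inhibitor of CDK4 and CDK6, stood at 866 in PBS, 645 in OP449, 621 in siNT, 556 in siSET and 495 in siCIP2A, a difference of -0.48. TOB1 stood higher, at 0.30 [0.05 to 0.56].

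**Figure D2:**
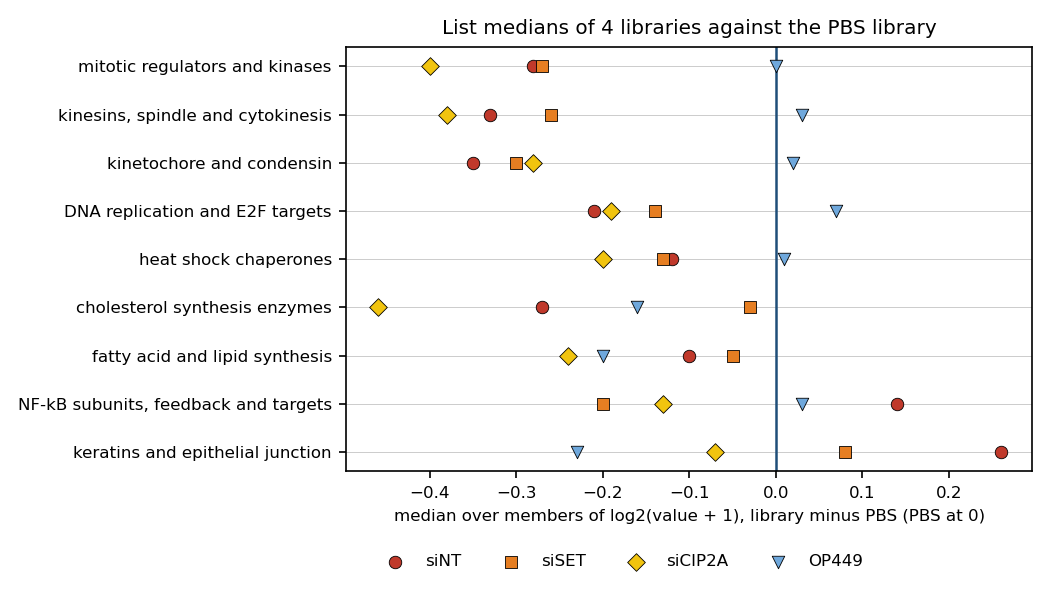
Median over the members of 9 gene lists of log2(value + 1) in siNT, siSET, siCIP2A and OP449, each minus PBS, which is the line at 0; all 4 medians of a list share the PBS library. For the 3 mitosis lists the siRNA libraries lie between -0.26 and -0.40 and OP449 between 0.00 and 0.03, while for the NF-kB list siNT (0.14) lies on the other side of 0 from siSET (-0.20) and siCIP2A (-0.13).

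Cytokine genes stood higher in siNT than in PBS in most cases, with another order of the libraries than the mitosis genes. Of 34 secreted cytokine genes in the table, 17 passed the floor. The other 17 stood under the floor, and 6 of the 34 were at 0 in all 5 libraries. A gene can pass the floor through siNT alone, so the counts that follow describe only the genes that passed. Of the 17, 13 stood higher in siNT, against 49.0% of all genes, and 4 lower. At least 2-fold higher were 4 (CSF3, IL1A, IL1B and the vasoactive peptide gene EDN2), against 0.247% of all genes. The list was drawn up with earlier results of these data known, and these 4 were among the 12 highest of all genes past the floor. Their number is thus a description only. The median was 0.13, while the 75th percentile of all genes was 0.14.

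CSF3, the granulocyte growth factor G-CSF, stood at 319 scaled counts in siNT and 69.1 in PBS, with 49.6 in siSET, 124 in siCIP2A and 196 in OP449. The siNT library was the highest, but OP449 stood above PBS as well, and siNT minus PBS was 2.19 [1.80 to 2.63], from 269 reads against 61. IL1A, an alarmin of the interleukin 1 family, read 501 in siNT and 538 in siCIP2A, but 116 in siSET, 163 in PBS and 251 in OP449. IL1B, its secreted relative, was high in the same libraries, at 175 in siNT, 179 in siCIP2A, 82.1 in siSET, 75.9 in PBS and 106 in OP449. In both interleukin genes siNT and siCIP2A were the high libraries and siSET lay with PBS or below it. EDN2, which encodes the vasoactive peptide endothelin 2, stood at 83.9 in PBS, 78.6 in OP449, 257 in siNT, 75.3 in siSET and 142 in siCIP2A. The IL24 difference of 0.83 came from 1074 in siNT and 605 in PBS, while OP449 read 2095, the highest of the 5. CXCL16 stood at 0.67, and the TNF family ligand TNFSF9 stood lower, at -0.71 [-1.09 to -0.34].

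Receptors and genes of the NF-kB list had medians near that of the cytokines, and none past the floor was 2-fold apart. Of 11 cytokine receptor genes past the floor, of 22 in the table, 7 stood higher in siNT, against 49.0% of all genes. Their median was 0.14. IL1R1, the signalling receptor for IL1A and IL1B, stood at 593 in siNT and 342 in PBS, with 349 in siSET, 489 in siCIP2A and 532 in OP449. Its difference was 0.79 [0.58 to 1.00], and siSET was the library nearest to PBS. FAS, a death receptor, stood at 0.62. Of 22 genes of the NF-kB list past the floor, of 31 in the table, 18 stood higher in siNT against 49.0% of all genes, with a median of 0.14, and siNT was the highest library of the 5 for 11, against 16.5% of all genes. LAMB3, a laminin chain that stands on this list as a target, differed by 0.39, the NF-kB subunit gene RELB by 0.25 and TNFAIP2 by 0.27. NFKBIA, the immediate feedback inhibitor of NF-kB, stood at 1529 in siNT and 1568 in PBS, a difference of -0.04 [-0.15 to 0.07].

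Genes that respond to interferon or sense foreign RNA stood higher in siNT in most cases, by small amounts. None of the 39 past the floor was at least 2-fold higher. Of the 39, 28 stood above PBS, against 49.0% of all genes, and the list median was 0.09. The interval was above 0 for 15, against 17.7% of all genes, and below 0 for 1. RSAD2, an antiviral enzyme gene, stood at 40.8 in PBS, 63.1 in OP449, 80.6 in siNT, 29.1 in siSET and 34.2 in siCIP2A, a difference of 0.96 [0.38 to 1.61]. IFI44 stood at 295 in siNT and 164 in PBS, with 217 in siSET, 125 in siCIP2A and 157 in OP449. The siNT library was the highest for both genes, while siCIP2A lay below PBS for both and siSET below it for RSAD2 alone. ISG15, a ubiquitin-like modifier, differed by 0.45, EIF2AK2, the double-stranded RNA sensor PKR, by 0.35 and IFI6 by -0.49 [-1.08 to 0.08]. For 12 of the 39 the 3 siRNA libraries lay above both 12 h libraries (30.8%, against 12.1% of all genes), among them GBP3 and NLRC5. Of 11 genes of the RNA interference machinery 10 stood above PBS, against 49.0% of all genes, with a median of 0.08. The list median against PBS was larger in OP449, at 0.20, and was 0.01 in siSET and 0.06 in siCIP2A. DICER1, the enzyme that cuts small RNA precursors, stood at 1197 in PBS, 1518 in OP449, 1894 in siNT, 1192 in siSET and 1424 in siCIP2A, so its difference of 0.66 [0.55 to 0.78] was not shared by siSET. The Argonaute genes EIF2C3 and EIF2C1 stood at 0.47 and 0.24 and EIF2C4 at -0.31 [-0.69 to 0.06].

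Of 45 sterol and lipid genes past the floor, 31 stood lower in siNT (68.9%, against 51.0% of all genes) and 14 higher. Of the 3 lists among them cholesterol synthesis had the largest share lower. Of these 12 enzymes, 11 were below PBS, against 51.0% of all genes, and 8 had an interval below 0, against 17.6%, with a median of -0.27. The summed level of the 12 was 12189 in siNT and 15308 in PBS, with 15069 in siSET, 9947 in siCIP2A and 13238 in OP449, so siSET lay near PBS and siCIP2A was the lowest. The 3 siRNA libraries were below both 12 h libraries for 1 of the 12, LBR, an enzyme gene of the nuclear envelope. The order of libraries in these genes therefore differed from that in the mitosis genes.

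MVK, which phosphorylates mevalonate, stood at 341 in PBS, 195 in OP449, 228 in siNT, 282 in siSET and 165 in siCIP2A, a difference of -0.58 [-0.85 to -0.32]. IDI1, an isomerase further along the same pathway, read 1133 in siNT and 1589 in PBS, with 1682 in siSET, 695 in siCIP2A and 968 in OP449. In both genes siNT lay between PBS and siCIP2A. PMVK differed by -0.51, FDPS by -0.45 and DHCR7 by -0.26, and TM7SF2, a sterol reductase gene, stood higher by 0.47 [0.11 to 0.85].

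Of 16 genes of cholesterol uptake, transport and sensing past the floor, 9 stood lower and 7 higher, a share lower (56.2%) near the 51.0% of all genes, with a median of -0.10. TMEM97, the sigma-2 receptor gene, stood at 448 in siNT and 857 in PBS, with 977 in siSET, 528 in siCIP2A and 828 in OP449, a difference of -0.93, and NPC1, the lysosomal cholesterol exporter, differed by -0.51. LRP1, a lipoprotein receptor gene, stood higher by 0.58 [0.40 to 0.76].

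Of 17 fatty acid and lipid genes past the floor 11 stood lower, against 51.0% of all genes, with a median of -0.10. SCD, the stearoyl-CoA desaturase, stood at 14804 in PBS, 4782 in OP449, 8853 in siNT, 13596 in siSET and 2607 in siCIP2A. At this depth the SCD difference of -0.74 has a narrow counting interval [-0.78 to -0.70], but the other 3 libraries span a wider range than the 2 controls do. FADS2 differed by -0.68, LPIN1 by -0.47, FADS1 by -0.46 and FASN by -0.43. The letters TCACNCCAC, a sterol element, were searched on both strands. They were in 0 of 11 cholesterol synthesis, 0 of 13 uptake, transport and sensing and 0 of 15 fatty acid and lipid promoters. Of the promoters of all genes past the floor 1.60% held them. With letters this rare and lists this short, 0 matches cannot show that such elements are missing.

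**Figure D3:**
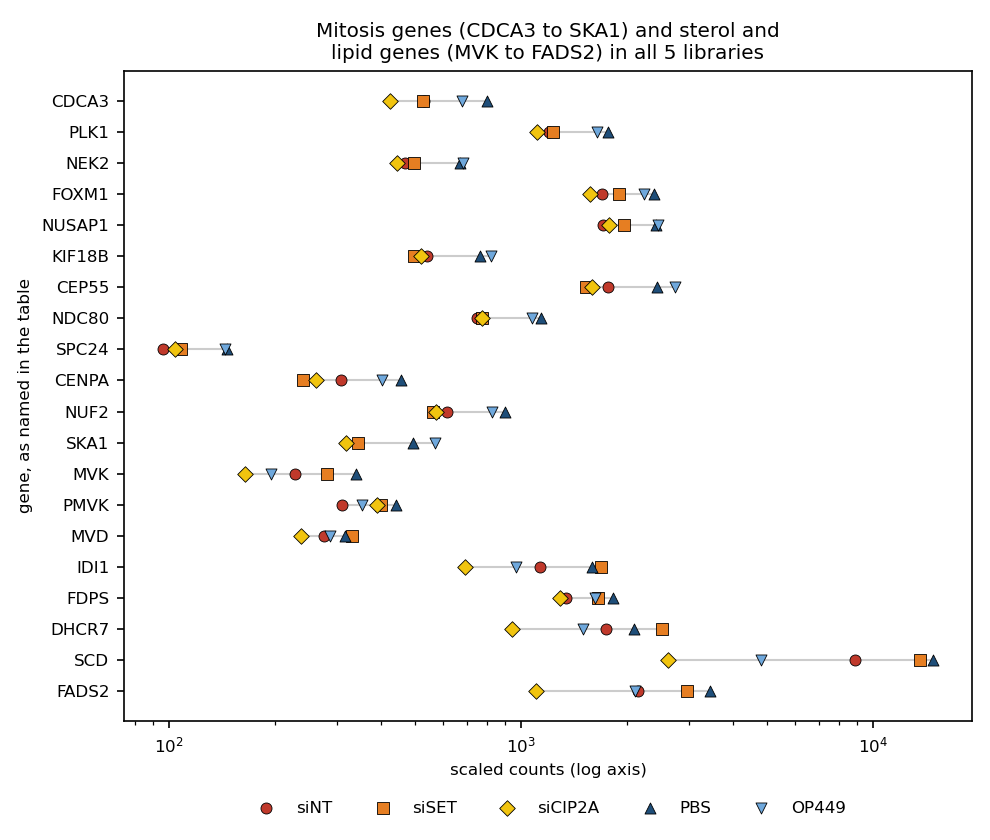
Scaled counts (log axis) of 12 mitosis genes (CDCA3 to SKA1) and 8 sterol and lipid genes (MVK to FADS2) in the 5 libraries; each marker is 1 library and the grey line spans the 5. For the mitosis genes siNT, siSET and siCIP2A lie left of PBS and OP449, as in NDC80 (748 to 777 against 1071 and 1137), while for SCD siSET lies nearer to PBS and siCIP2A is lowest.

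Genes of cell shape, adhesion and density showed smaller groups of differences. Of 24 keratin and epithelial junction genes past the floor, of 46 in the table, 16 stood higher in siNT, against 49.0% of all genes, with a median of 0.26, and siNT was the highest library for 11, against 16.5% of all genes. The list was drawn up with earlier results of these data known. Its 2 members past 2-fold, PRSS22 and TMEM45B, were among the 12 highest of all genes past the floor. Members such as PRSS22 pass the floor only through siNT, so these counts describe the genes that passed. With a floor of 200 the median was 0.19. Against PBS the list median was 0.08 in siSET, -0.07 in siCIP2A and -0.23 in OP449. The list also holds other epithelial genes, such as the protease gene PRSS22 and the mucin gene MUC1. PRSS22, an epithelial serine protease, had the largest ratio of all genes past the floor: it stood at 119.7 scaled counts in siNT and 22.7 in PBS, with 37.6 in siSET, 42.0 in siCIP2A and 20.6 in OP449. The siRNA libraries were all above the 12 h libraries, but the difference of 2.35 [1.70 to 3.17] rests on 101 reads against 20. TMEM45B stood at 87.3 in PBS, 157 in OP449, 205 in siNT, 41.1 in siSET and 110.4 in siCIP2A, so siSET was the lowest. PPL, a desmosomal plaque protein gene, stood at 0.82 and the mucin gene MUC1 at 0.80. CDH1, E-cadherin, was below the floor, at 27.3 in siNT and 56.7 in PBS. Of the luminal markers, which include MUC1 and CDH1, 6 of the 8 past the floor stood higher in siNT, while CDH1 stood lower. The sums over all 11 luminal markers were close, at 7818 in siNT and 7654 in PBS. The part of these markers in the keratin and junction list was not tested.

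Of 23 matrix, integrin and protease genes past the floor 13 stood higher and 10 lower (43.5%, against 51.0% of all genes). Their median of 0.15 was 0.05 after removal of trends with length and GC content. For 8 of them (34.8%, against 12.1% of all genes) the siRNA libraries were all above the 12 h libraries. The fibronectin receptor subunit gene ITGA5 stood at 3189 in siNT and 2086 in PBS, with 2879 in siSET, 3765 in siCIP2A and 2097 in OP449. The urokinase receptor gene PLAUR read 1808, 1396 and 1445 in siNT, siSET and siCIP2A and 1123 and 1219 in PBS and OP449. COL1A1, a fibrillar collagen gene, stood at 73.7 in PBS, 85.0 in OP449, 162 in siNT, 104 in siSET and 86.1 in siCIP2A. In these 3 genes the siRNA libraries lay above the 12 h libraries, for COL1A1 by a gap of 0.02 on the log2 scale. Of 19 YAP and TEAD targets 12 stood lower (63.2%, against 51.0% of all genes) and 7 higher, with a median of -0.08. ANKRD1 stood at -0.55 and YAP1 itself at -0.37, while F3 and THBS1 stood at 0.58 and 0.57, so this list had no common direction.

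Stress and metabolism lists had small medians. Of 21 heat shock chaperone genes past the floor 16 stood lower in siNT, against 51.0% of all genes, with a median of -0.12. For 11 (52.4%, against 13.8% of all genes) the siRNA libraries were all below the 12 h libraries. HSP90AA1, the inducible HSP90, stood at 13257 in siNT and 16903 in PBS, with 12164 in siSET, 12304 in siCIP2A and 16592 in OP449. HSPA8 differed by -0.31 and HSPH1 by -0.36, while HSF4, at low levels, stood at 0.54 [-0.03 to 1.13]. Of 34 glycolysis and hypoxia genes 21 stood higher, against 49.0% of all genes, with a median of 0.08. For 12 (35.3%, against 12.1% of all genes) the siRNA libraries were all above the 12 h libraries. EGLN3, an oxygen-sensing hydroxylase gene, stood at 410.3 in PBS, 354 in OP449, 593 in siNT, 505 in siSET and 724 in siCIP2A, and the peptide hormone gene ADM differed by 0.42. ENO1, a glycolytic enzyme gene, stood lower, at -0.35. Of 11 circadian clock genes past the floor 7 stood higher and 4 lower (36.4%, against 51.0% of all genes). Their median was 0.15, which was 0.00 with no floor, and their mean was -0.01. NR1D1 stood at 90.1 in siNT and 148 in PBS, with 101 in siSET, 110.4 in siCIP2A and 171 in OP449, its activator ARNTL differed by -0.55, and BHLHE41 by 0.52.

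Against 51.0% of all genes, ribosomal protein genes stood lower in 36 of 44, with a median of -0.09, and splicing factor genes in 30 of 38, with the same median. PBS was the highest of the 5 libraries for 20 of the 38 splicing genes, against 14.2% of all genes. The medians were -0.02 for ER chaperones, -0.03 for ATF4 and amino acid response genes, -0.02 for the p53 and BCL2 list, -0.04 for NRF2 genes, -0.03 for lysosome and autophagy genes, -0.02 for nuclear oxidative phosphorylation, 0.01 for ribosome biogenesis, 0.12 for immediate early and AP-1 genes, and 0.06 for the BMP and TGF-beta list.

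**Figure D4:**
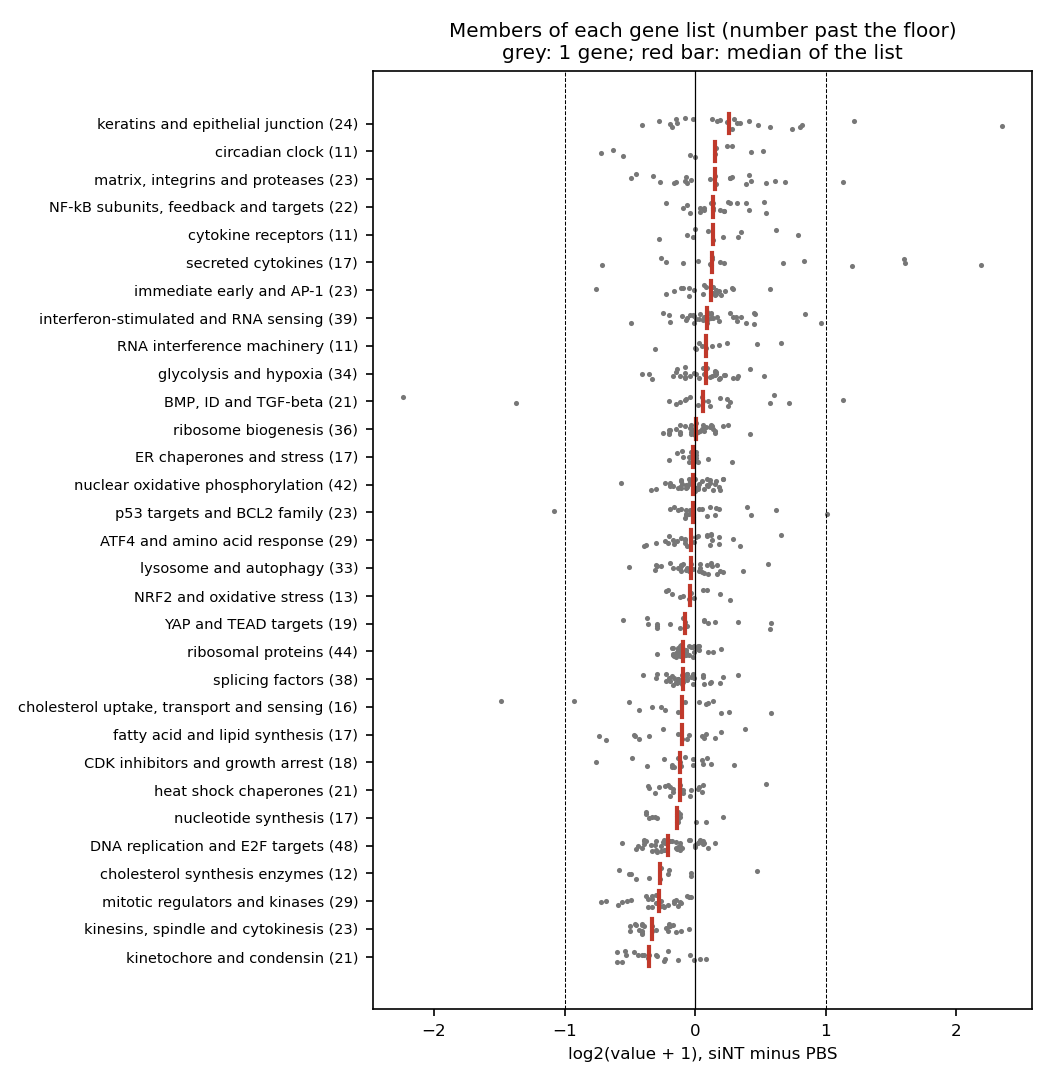
Log2(value + 1) difference, siNT minus PBS, of every list member past the floor (grey points, 1 gene each, jittered vertically), with the median of the list as a red bar and dashed lines at 2-fold. The kinetochore list (-0.35) and the other mitosis lists sit at one end and the keratin and epithelial junction list (0.26) at the other, and 2-fold differences are single genes rather than whole lists.

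The siRNA and 12 h libraries separated for a smaller share of the 24 genes past 2-fold than of the mitosis genes. Of the 15 higher genes siNT was the highest of the 5 libraries in 10, against 16.5% of all genes. The siRNA libraries were all above the 12 h libraries in 4 (PRSS22, TRIM29, COL1A1 and ATHL1), against 12.1% of all genes. The medians of these 15 against PBS were 1.21 in siNT, 0.17 in siSET, 0.83 in siCIP2A and 0.55 in OP449. Of the 9 lower genes siNT was the lowest in 6, against 19.7% of all genes. The siRNA libraries were all below in 3 (ATOH8, IMPA2 and FAM89A), against 13.8% of all genes. The medians of these 9 against PBS were -1.04 in siNT, -0.28 in siSET, -0.30 in siCIP2A and -0.28 in OP449. The genes were picked by the ratio of siNT to PBS, which by itself places siNT high or low and PBS opposite, so these counts are a description. TRIM29, a basal epithelial regulator gene, stood at 383 in PBS, 287 in OP449, 879 in siNT, 455 in siSET and 706 in siCIP2A.

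ATOH8, a basic helix-loop-helix transcription factor gene, stood at 24.9 in siNT and 121 in PBS, with 75.3 in siSET, 36.4 in siCIP2A and 106 in OP449, a difference of -2.24 [-3.03 to -1.60] from 21 reads against 107. ID3, an inhibitor of that class of factors, stood at 244 in PBS, 184 in OP449, 93.6 in siNT, 339 in siSET and 68.5 in siCIP2A. For ID3 siSET was thus the highest library and siCIP2A the lowest, with siNT near siCIP2A. RPS27L, a ribosomal protein paralog and p53 target, stood at 270.2 in siNT and 571 in PBS, with 741 in siSET, 573 in siCIP2A and 472 in OP449. SAPS3, now named PPP6R3, a regulatory subunit of protein phosphatase 6, had the most reads of the 24: it stood at 2458 in PBS, 2604 in OP449, 1224 in siNT, 2465 in siSET and 1995 in siCIP2A. Its level in PBS was 2.01 times that in siNT. For RPS27L and SAPS3 the other 4 libraries were all above siNT.

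The remaining higher genes were SCG5, a chaperone gene of secretory granules (1.27), NEURL (1.23), C19orf36, now IZUMO4 (1.21), ATHL1, now PGGHG (1.07), PCNXL2, now PCNX2 (1.04), the Wnt ligand gene WNT9A (1.03) and the pro-apoptotic BCL2 relative BMF (1.01). Other lower genes were ZNF114 (-1.04), the nicotinamide methyltransferase gene NNMT and FAM89A (both -1.02) and the inositol phosphatase gene IMPA2 (-1.01). Just outside the threshold lay PTPRH (0.99), RSAD2 (0.96) and ADAMTS14 (0.96) above and DYRK2 (-0.99), ZNF268 (-0.97) and DOK4 (-0.96) below. On hg19 the transcript of PRSS22 spans chromosome 16 from 2902728 to 2908171, that of EDN2 chromosome 1 from 41944449 to 41950344, that of ATOH8 chromosome 2 from 85980909 to 86018505 and that of SAPS3 chromosome 11 from 68228186 to 68382799.

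**Figure D5:**
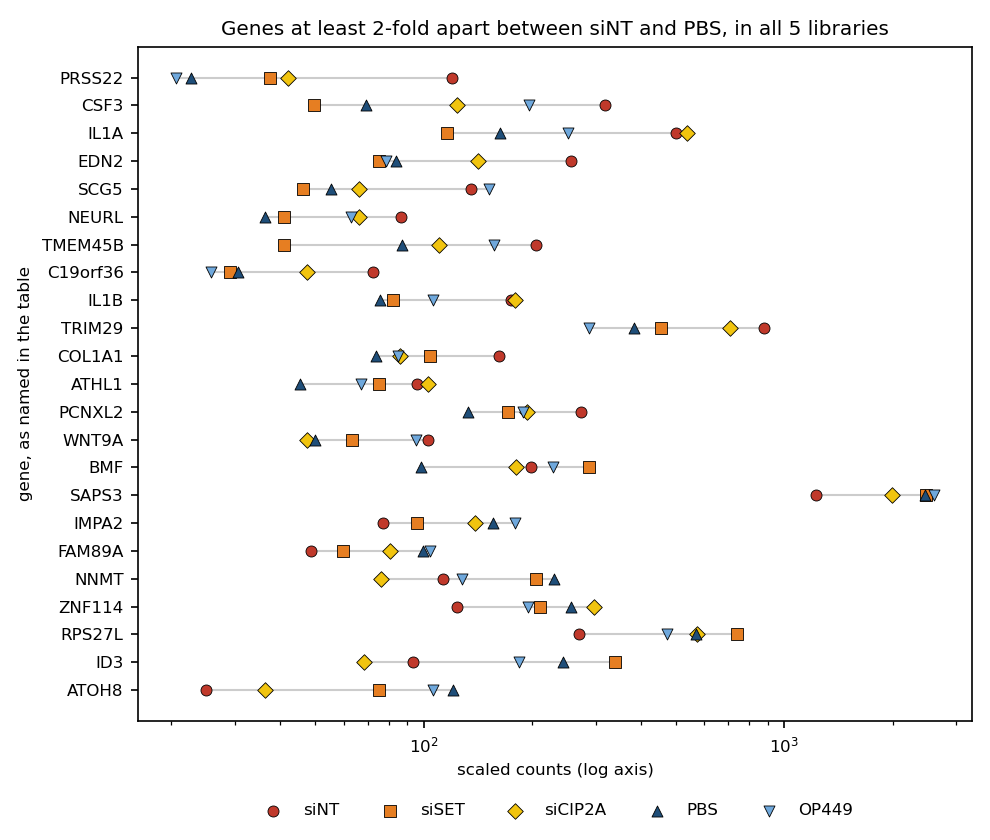
Scaled counts (log axis) of the 15 genes at least 2-fold higher and 8 of the 9 at least 2-fold lower in siNT than in PBS, in all 5 libraries; each marker is 1 library. IL1A and IL1B show siNT together with siCIP2A (501 and 538, 175 and 179), RPS27L and SAPS3 show siNT alone at the low end, and PRSS22 shows the siRNA libraries right of the 12 h libraries.

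The genes with the widest gap between the 3 siRNA libraries and the 2 12 h libraries, named after their values were seen, included mitosis genes on the low side. Lower in the siRNA libraries were LBH, a transcriptional cofactor gene, at 277, 286 and 259 in siNT, siSET and siCIP2A against 448 and 499 in PBS and OP449, and after it CTXN1, THAP10, RPS6KA5, SKA1, KIF18B, ATOH8, NDC80 and CEP55. The LBH gap was -0.65 on the log2 scale. Higher were PRSS22, LMBR1L, ELF3, HSF4, PLA2R1, RNF207, LRP1 and ITGA5. ELF3, an epithelial transcription factor gene, stood at 171, 202 and 168 in the siRNA libraries and 114 and 99.2 in the 12 h libraries.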

How the data were processed

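RNA of MDA-MB-231 cells was reverse transcribed from oligo-dT and sequenced on an Illumina GAII, per the labels' protocols. The submitters' processing notes name hg19, CASAVA and Bowtie 1.0.0 without their roles. Not given in the sources used here are the counter, its use of strand and the scaling. Per RefSeq transcript, the authors deposited a signal already on a common scale, called scaled counts. In each library 100.0% of values were whole multiples of what 1 read is worth, within 0.001 reads, so reads were recovered. Without a stated use of strand, reads of genes that overlap on opposite strands cannot be told apart.

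Of 16383 transcript rows, 15739 had an accession with a current symbol, 15 date-like symbols were restored, and 146 accessions lay at more than 1 position, where reads may be divided between copies. Each symbol was represented by the transcript with the highest mean over the 5 columns. Genes whose siNT and PBS values averaged 50 or more were compared on log2(value + 1), which understates the differences of low genes. Ratios had 95% exact Clopper-Pearson intervals from recovered reads. Reads carry no molecular identifiers, so intervals and floors cover counting error only.

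The members and the 31 gene lists (1126 genes, of which 837 were in the table and 727 past the floor) were chosen with earlier results of these data known. Named genes were the 12 highest and 12 lowest, up to 8 members per cell cycle, cytokine and sterol list and up to 4 per other list, by size of difference. A few of the genes it selects are left unreported. NCAPD3, CASC5, MASTL, PKMYT1, CCNE1, NFKBIA, CDH1, LBR, PCNXL2, WNT9A, BMF, the marker genes, the genes just outside 2-fold and those of the widest gap were named after their values were seen, where the rule did not name them. Promoters came from RefSeq GRCh38.p14. The alternatives were other floors, pseudocounts, scalings, folds and transcript choices. The exact binomial test of reads and the removal of trends with length and GC content (known for 96.6% of genes) were added after seeing the data. The scripts were tested on simulated data. Python 3.11.15, numpy 2.4.6, pandas 2.3.3 and scipy 1.17.1 were used.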

Additional observations from a re-analysis of the deposited data

How the results depend on the processing

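With 1 library a group, no library could be left out, and no paired analysis was possible because no group has a second library. The count of genes at least 2-fold higher, 15, became 28 with a floor of 20, 3 with a floor of 200, 432 with no floor and 99 at a fold of 1.5. The count of lower genes, 9, became 23, 3, 381 and 85 under the same settings, 4 with a pseudocount of 10 and 15 with every transcript row counted. An exact binomial test of the reads (Benjamini-Hochberg adjusted at 0.05, any fold), which compares 2 libraries and not conditions, called 818 higher and 786 lower, and 15 and 9 with a fold of 2. Scaling by equal totals, median ratios and upper quartiles moved the median of all genes by 0.006, 0.001 and -0.013, and gave 14 to 16 higher and 8 or 9 lower genes. The median of all mitosis genes lay between -0.32 and -0.29 under every alternative run, that of DNA replication between -0.22 and -0.17, of the NF-kB list between 0.13 and 0.17 and of cholesterol synthesis between -0.31 and -0.24. The cytokine median lay between 0.12 and 0.20, with a mean of 0.46. The siRNA libraries lay below both 12 h libraries for 64 to 66 mitosis genes. Signs changed for some lists: BMP and TGF-beta (0.06) was at -0.02 with a floor of 20 and -0.05 with none, ribosome biogenesis at -0.01 by upper quartiles, oxidative phosphorylation at 0.01 without the length and GC trend, and the means of the p53 and clock lists were 0.05 and -0.01. The clock median, 0.15, was 0.00 with no floor. Without that trend the matrix median of 0.15 was 0.05, ribosomal proteins -0.05, RNA interference 0.05 and BMP and TGF-beta 0.01, and with no floor the immediate early median of 0.12 was 0.07. All 890 values of the 178 named genes kept their direction. Those genes were picked by size of difference and the scalings moved values little, so a change of sign was hardly possible. Genes near the floor rest on few reads: PRSS22 had 20 in PBS and ATOH8 21 in siNT.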
